A study of Mus musculus with 6 samples.

Results

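The genes described here run the last part of the cell cycle, from G2 through mitosis to the parting of the daughter cells. Their 42 members were listed by name: CDK1 with its cyclins and phosphatases, the polo-like and Aurora kinases, the chromosomal passenger complex, the spindle checkpoint, the anaphase machinery, the kinetochore, spindle motors and the cytokinesis genes. A member's value was that of the probe set for which the platform gives its symbol and no other, which held for 40 of the 42, out of 30063 genes measured. Ccnb1 (cyclin B1) and Foxm1, the factor that switches on many of these genes, had no such probe set and were not analysed here. The Foxm1 probe set also carries the name of another transcript.

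The values are log2 signals from expression arrays of epidermal sheets, the outer layer of skin freed from the dermis with ammonium thiocyanate. The 3 Rptor cKO sheets (arrays 1 to 3) came from conditional knockout embryos, which lack the mTORC1 subunit Raptor in the targeted cells. The 3 wild-type sheets (arrays 4 to 6) came from littermates, all at E18.5. The sources used here do not give the Cre driver, the exons deleted, or whether a sheet was a single embryo or a pool. The labels call the samples of each group biological replicates. By Xist and Y-linked genes, Rptor cKO arrays 1 and 3 came from females, and Rptor cKO array 2 and wild-type arrays 4, 5 and 6 came from males.

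In stratified epidermis, dividing cells lie in the basal layer and in hair germs, while cells that move up leave the cycle and cornify. Transcripts of mitotic genes build up late in the cycle, and many of the proteins are then destroyed by the anaphase-promoting complex as the cell divides. RNA of these genes in a sheet therefore follows how many of its cells are in G2 or mitosis as well as how much each such cell makes. In a bulk sample fewer cells of a kind and less RNA per cell cannot be told apart. mTORC1 itself couples nutrient and growth factor signals to cell growth.

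Some mitosis and G2/M genes rose modestly in Rptor cKO sheets, and most of the others also read higher there without passing the test. Of 40 measured members, 9 rose, none fell and 31 did not pass the test, in which limma adjusted p-values over all 30063 genes with a threshold of 0.05. Over all genes tested, 3.64% were called higher and 5.96% lower, while 22.5% of the members were called higher. At an unadjusted p under 0.05, 28 members (70%) were higher and 0 lower, and 11.9% of all genes were higher. The 9 were Anln, Aurkb, Kif2c, Cdca8, Cdc20, Espl1, Mad2l1, Aurka and Plk1, ordered by p. The log2 difference, always Rptor cKO minus wild type, was above 0 for 39 of the 40, the exception being Ttk, as it was for 61.6% of all genes. The median member difference was 0.39, a 1.31-fold higher level, with a range from -0.11 to 0.85, while the median over all genes was 0.05. No member reached a 2-fold difference. The 3 Rptor cKO arrays all lay above the 3 wild-type arrays for 22 members, 55% of those measured, compared with 16.5% of all genes. Because the members were chosen with earlier results of these data known, these contrasts with all genes give no independent support.

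**Figure D1:**
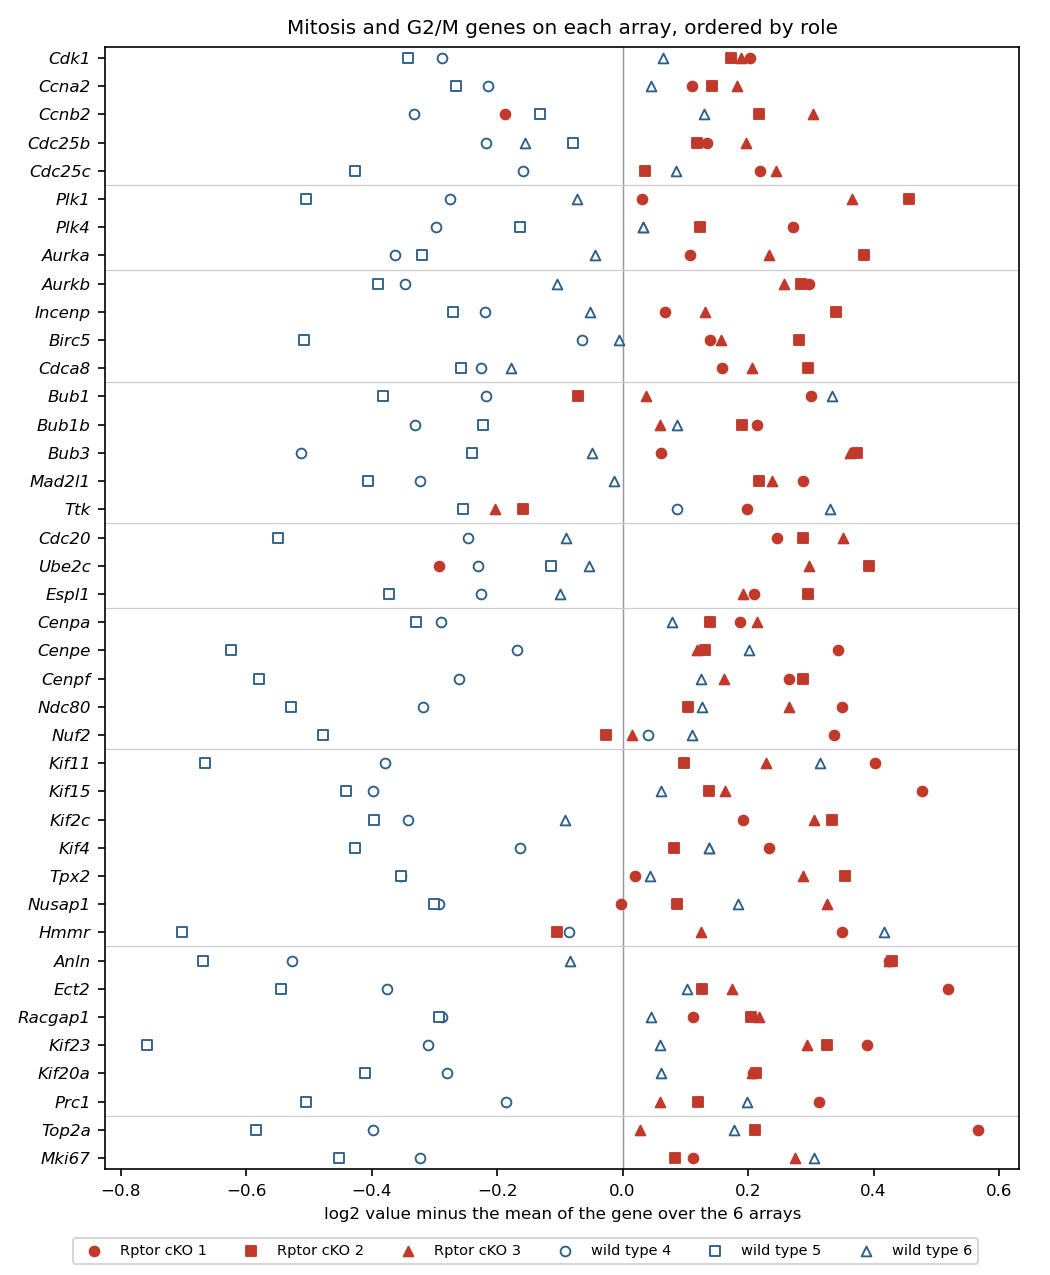
Each row is a member, grouped by role between grey lines, and each point is an array's log2 value minus that gene's mean over the 6 arrays (filled red for Rptor cKO, open blue for wild type). Wild-type array 5 is usually the lowest and wild-type array 6 reaches into the Rptor cKO points, lying above the lowest of them for 18 of 40 members.

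The wild-type arrays did not form a tight group for these genes. Relative to each gene's mean over the 6 arrays, the median member deviated by 0.21, 0.20 and 0.21 in Rptor cKO arrays 1 to 3, against -0.29, -0.40 and 0.06 in wild-type arrays 4 to 6. The Rptor cKO sheets thus sat at a common level, whereas wild-type array 6 stood apart from the other 2 wild-type arrays. That array was the highest wild-type array for 39 of 40 members, as for 26.5% of all genes, and array 5 the lowest for 32 members, as for 24.1% of all genes. The SD was larger among wild-type than among Rptor cKO arrays for 35 of 40 members, as for 56.8% of all genes. Its median over members was 0.117 in Rptor cKO and 0.239 in wild type, whereas over all genes it was 0.116 in Rptor cKO and 0.131 in wild type.

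How many members passed depended on which arrays entered the fit. Without wild-type array 6, 22 members were called higher (2.84% of all genes). Leaving out Rptor cKO array 1 gave 7 (2.46% of all genes), and leaving out Rptor cKO array 3 gave 4 (2.74%). The fit lacking wild-type array 4 gave 5 (2.22%), and that lacking wild-type array 5 gave 4 (2.61%). Without Rptor cKO array 2, the male of its group, limma called 0 members, and 0.911% of all genes were called higher. At an unadjusted p under 0.05 that fit had 21 members higher and 8.01% of all genes higher. With the sex of the embryo as an added term, which in effect sets Rptor cKO array 2 alone against the wild type, limma again called 0 members, and 0.672% of all genes were called higher. At an unadjusted p under 0.05 this fit had 12 members higher and 8.94% of all genes higher. The member median lay between 0.30 without wild-type array 5 and 0.52 without wild-type array 6, and at 0.39 both without Rptor cKO array 2 and with the sex term.

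**Figure D2:**
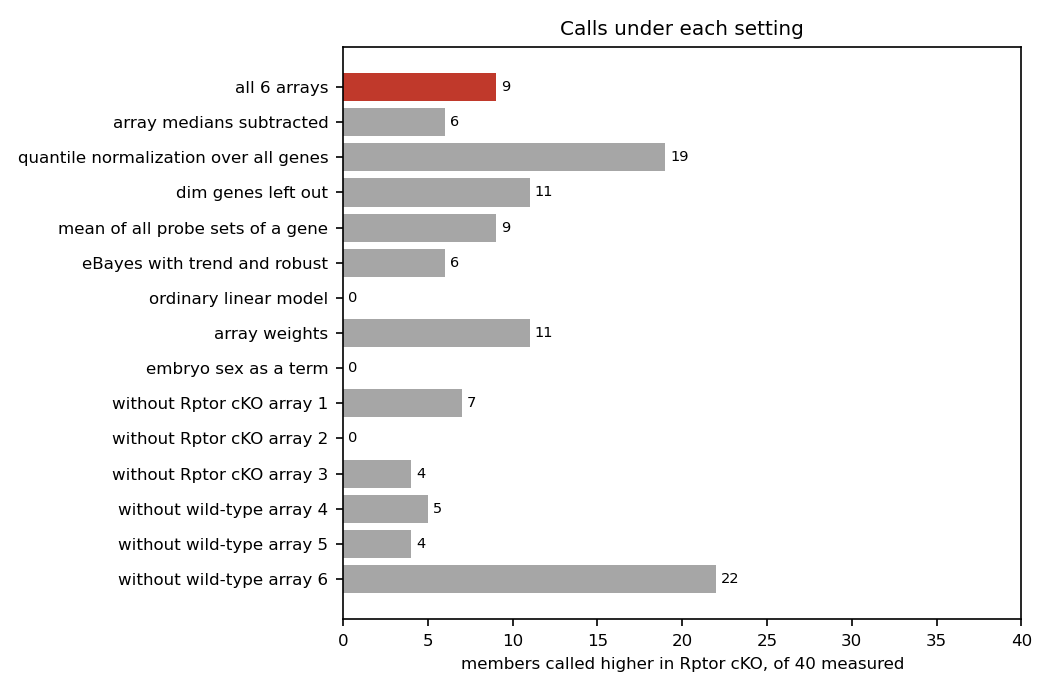
Bars give the number of the 40 measured members called higher in Rptor cKO (limma adjusted p under 0.05, the ordinary linear model excepted) under each setting, the main one in red. The count is 9 with all 6 arrays, 22 without wild-type array 6, and 0 without Rptor cKO array 2, with embryo sex as a term or with an ordinary linear model.

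The sheets were keratinocyte tissue by their markers, and some markers of other cells also differed between the groups. Signals of a marker list were summed on the linear scale for each array. By the same test 3.64% of all genes rose and 5.96% fell. All 12 suprabasal markers fell (median -2.08), and their sum ran from 5520 to 15100 in Rptor cKO and from 28100 to 39800 in wild type. Of 11 basal markers 4 rose and 1 fell (median 0.26), with sums from 7850 to 10200 in Rptor cKO and from 9210 to 11200 in wild type, which overlap. The fall was Krt15 (-2.31, SE 0.347), whose wild-type values of 10.89 to 11.47 enter these sums. The other basal differences were all positive, from 0.02 to 1.41. Of 12 hair germ and follicle markers 3 rose (median 0.24; 4310 to 6050 in Rptor cKO, 3230 to 4060 in wild type), and of 10 fibroblast markers 6 rose (median 0.67; 1460 to 1700 in Rptor cKO, 1130 to 1210 in wild type). Endothelial markers were dim, with 3 of 9 below the typical negative control on all 6 arrays, and 2 rose (sums of 181 to 202 in Rptor cKO, 141 to 168 in wild type). Of 9 melanocyte markers 1 rose (1610 to 2390 in Rptor cKO, 1130 to 1800 in wild type). None of 9 muscle or 5 red cell markers passed in limma, with 6 muscle and 0 red cell markers at an unadjusted p under 0.05 (muscle 454 to 657 in Rptor cKO, 354 to 502 in wild type, and red cells 111 to 126 in Rptor cKO, 99.3 to 116 in wild type). Of 11 Langerhans cell and macrophage markers 3 fell (526 to 642 in Rptor cKO, 658 to 677 in wild type). Among 6 T cell markers 1 fell (141 to 147 in Rptor cKO, 142 to 160 in wild type). Of 8 Merkel cell markers 1 rose and 2 fell (273 to 335 in Rptor cKO, 395 to 658 in wild type). The part of these shifts in the mitotic values was not tested. Rptor read 6.54, 6.82 and 6.72 in Rptor cKO against 6.98, 7.46 and 7.0 in wild type, lower in every Rptor cKO array but not past the test (-0.46, SE 0.147, adjusted p = 0.0988), so it is a weak check of the labels.

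Many G2/M genes share promoter letters through which they are held off early in the cycle and switched on late. The cell cycle homology region (CHR, letters TTTGAA) binds the MuvB core of the DREAM and B-MYB complexes, and CCAAT boxes (letters CCAAT) bind the factor NF-Y. RefSeq windows from 250 bases before to 50 bases after a start site (build GRCm38.p6) matched 35 of the 42 members, in 38 windows, some of which overlap for the same gene. Ccna2, Cdc25c, Foxm1, Aurkb, Incenp, Tpx2 and Kif20a had no entry. The windows printed are those of the 6 members with the smallest p among those with an entry, so that the letters can be read in place. They run 5′ to 3′, with every CHR and CCAAT match on either strand in capitals (reversed, TTCAAA and ATTGG).
Anln (chr9:22389157-22389456, minus strand): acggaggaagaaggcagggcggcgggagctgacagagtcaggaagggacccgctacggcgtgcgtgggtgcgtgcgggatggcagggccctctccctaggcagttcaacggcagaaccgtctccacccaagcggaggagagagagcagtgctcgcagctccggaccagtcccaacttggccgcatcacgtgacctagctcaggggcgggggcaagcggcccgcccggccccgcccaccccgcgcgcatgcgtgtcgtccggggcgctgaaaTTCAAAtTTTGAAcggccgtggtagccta
Kif2c (chr4:117178723-117179022, minus strand): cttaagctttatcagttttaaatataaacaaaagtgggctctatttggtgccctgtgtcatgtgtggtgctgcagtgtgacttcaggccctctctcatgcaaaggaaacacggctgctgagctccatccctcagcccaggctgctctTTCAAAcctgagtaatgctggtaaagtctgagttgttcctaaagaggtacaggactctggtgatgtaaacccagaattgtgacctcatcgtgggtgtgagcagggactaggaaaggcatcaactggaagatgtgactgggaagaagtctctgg
Cdca8 (chr4:124936868-124937167, minus strand): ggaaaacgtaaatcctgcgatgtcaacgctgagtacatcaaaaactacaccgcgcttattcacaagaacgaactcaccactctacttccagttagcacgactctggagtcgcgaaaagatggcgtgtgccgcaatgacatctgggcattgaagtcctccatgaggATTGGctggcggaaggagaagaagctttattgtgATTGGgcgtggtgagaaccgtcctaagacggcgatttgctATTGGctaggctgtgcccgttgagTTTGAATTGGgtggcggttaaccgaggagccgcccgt
Cdc20 (chr4:118437294-118437593, minus strand): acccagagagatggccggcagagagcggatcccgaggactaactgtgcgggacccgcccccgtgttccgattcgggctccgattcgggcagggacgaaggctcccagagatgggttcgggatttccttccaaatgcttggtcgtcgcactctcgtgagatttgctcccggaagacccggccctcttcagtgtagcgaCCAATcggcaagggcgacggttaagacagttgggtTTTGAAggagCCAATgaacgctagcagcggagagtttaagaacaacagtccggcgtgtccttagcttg
Espl1 (chr15:102296043-102296342, plus strand): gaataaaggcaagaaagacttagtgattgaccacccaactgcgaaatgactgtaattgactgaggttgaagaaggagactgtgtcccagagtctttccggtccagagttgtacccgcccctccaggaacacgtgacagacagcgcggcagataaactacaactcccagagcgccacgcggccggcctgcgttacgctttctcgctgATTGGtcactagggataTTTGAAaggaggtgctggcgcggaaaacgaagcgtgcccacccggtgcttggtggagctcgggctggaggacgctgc
Mad2l1 (chr6:66534971-66535270, plus strand): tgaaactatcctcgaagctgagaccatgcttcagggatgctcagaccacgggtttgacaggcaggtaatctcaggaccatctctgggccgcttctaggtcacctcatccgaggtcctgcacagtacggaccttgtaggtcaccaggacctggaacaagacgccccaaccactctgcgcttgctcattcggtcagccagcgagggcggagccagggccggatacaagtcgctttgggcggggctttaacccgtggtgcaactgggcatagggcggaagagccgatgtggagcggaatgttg

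The CHR letters occurred in 29 of the 38 member windows, 76.3%, compared with 17.9% of all 32851 windows of the table. Within 50 bases of the start site they occurred in 26 member windows, 68.4%, compared with 4.94% of all windows. CCAAT occurred in 76.3% of member windows and 37.4% of all windows, and both together in 65.8% of member windows and 6.95% of all windows. In the printed set, Cdc20, the activator of the anaphase-promoting complex, has its CHR starting 18 bases before the start site between a pair of CCAAT boxes. Cdca8 (borealin) has 4 reversed CCAAT boxes, the last sharing 1 base with the CHR. Anln has adjoining CHR matches on opposite strands, 22 and 29 bases into the transcript, and no CCAAT box. The Kif2c window lies inside the annotated gene rather than at its outer end, and its lone CHR starts at position -103 from that start. Mad2l1 holds neither set of letters. The windows of called members held a CHR in 7 of 8 cases, those of measured members that were not called in 22 of 29. The remaining window is that of Ccnb1, which had no value. A match of letters is a description of the sequence and does not show that a factor binds there.

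**Figure D3:**
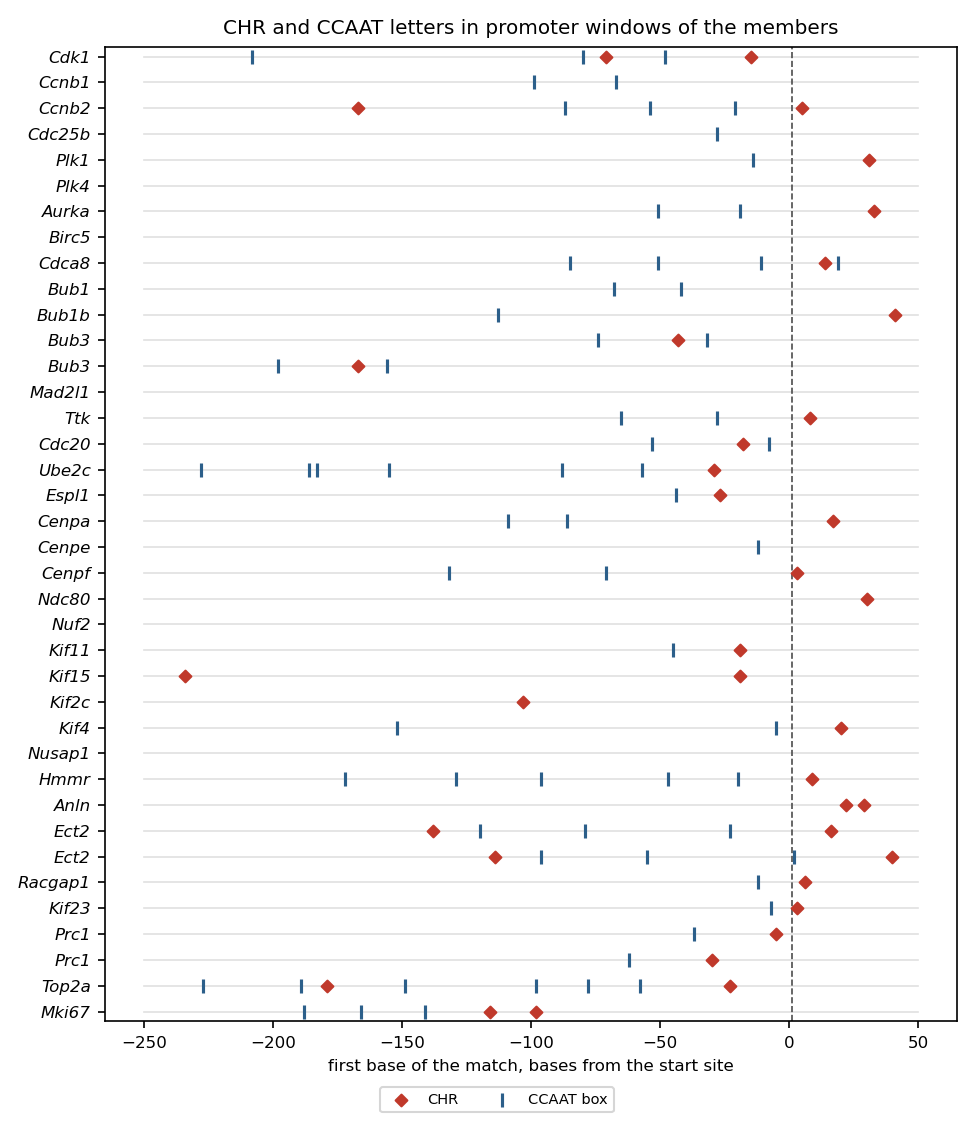
Each row is a promoter window of a member, with several rows for a gene that has several start sites, and marks give the first base of each CHR (red) and CCAAT (blue) match relative to the start site (dashed line). CHR marks gather within 50 bases of the start site in 26 of 38 windows, and 5 windows have no mark.

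CDK1 with cyclin A2 or the B cyclins is the kinase that drives entry into mitosis, and CDC25 phosphatases switch it on. None of the 5 measured genes of this group passed in limma (4 had an unadjusted p under 0.05), although their differences all pointed up (median 0.30, highest 0.38). Cdk1 (chromosome 10, 69335146 to 69352912) read 7.21, 7.18 and 7.19 in Rptor cKO, against 6.72, 6.66 and 7.07 in wild type, a difference of 0.38 (SE 0.12, adjusted p = 0.0956). Ccna2 read 7.58, 7.62 and 7.66 in Rptor cKO, against 7.26, 7.21 and 7.52 in wild type (0.29, SE 0.106, adjusted p = 0.14). For both genes the groups did not overlap, and wild-type array 6 came closest to the Rptor cKO level. Ccnb2 (cyclin B2) read 7.58, 7.99 and 8.07 in Rptor cKO against 7.44, 7.64 and 7.90 in wild type, overlapping values whose difference of 0.22 (SE 0.162) was near its error. Cdc25b, the phosphatase that starts CDK1 activation in G2, read 6.56, 6.54 and 6.62 in Rptor cKO and 6.21, 6.35 and 6.27 in wild type. These groups were far apart for their spread (SD 0.0408 and 0.0689, n = 3 each), and the difference of 0.30 (SE 0.087) had adjusted p = 0.07. It was the sole member for which wild-type array 6 was not the highest of its group. Cdc25c, which acts at mitotic entry, had a difference of 0.33 (SE 0.138, adjusted p = 0.191) with overlapping groups.

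Among the polo-like and Aurora A kinases, 2 of 3 rose. Plk1, which acts from mitotic entry to cytokinesis, read 8.29, 8.72 and 8.62 in Rptor cKO, against 7.98, 7.75 and 8.19 in wild type, with the lowest Rptor cKO array just above the highest wild-type array. It rose by 0.57 (SE 0.149, 1.48-fold), and its adjusted p of 0.0493 was the closest to the threshold among the 9. Aurka (chromosome 2, 172356190 to 172370886), the kinase of spindle poles, read 7.30, 7.57 and 7.42 in Rptor cKO, against 6.83, 6.87 and 7.15 in wild type, and rose by 0.48 (SE 0.12, adjusted p = 0.0417). Plk4, which starts centriole duplication, differed by 0.28 (SE 0.115, adjusted p = 0.181), and its lowest Rptor cKO value and its highest wild-type value were both 6.19.

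The chromosomal passenger complex, which corrects kinetochore attachments and later marks the division plane, was the sole group in which every gene separated the arrays by genotype. In all 4 of its subunits the 3 Rptor cKO arrays lay above the 3 wild-type arrays, and 2 of the 4 rose. Its kinase Aurkb (chromosome 11, 69045624 to 69051664) read 7.41, 7.40 and 7.37 in Rptor cKO, against 6.77, 6.72 and 7.01 in wild type. The Rptor cKO arrays lay close together, and the gene rose 1.47-fold (0.56, SE 0.102, adjusted p = 0.0131). Cdca8, the subunit borealin that helps target the complex to centromeres, read 6.90, 7.03 and 6.94 in Rptor cKO, against 6.51, 6.48 and 6.56 in wild type. Here wild-type array 6 lay near the other wild-type arrays, and the rise of 0.44 (SE 0.0869, adjusted p = 0.0174) had the smallest error of the called members. The scaffold Incenp differed by 0.36 (SE 0.109, adjusted p = 0.0812) and Birc5 (survivin) by 0.38 (SE 0.14, adjusted p = 0.138).

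The spindle checkpoint holds anaphase back until all kinetochores are attached. Of its 5 members 1 rose, and this group held the sole negative difference. Mad2l1 (MAD2, the inhibitor of CDC20) read 7.69, 7.62 and 7.64 in Rptor cKO, against 7.08, 7.0 and 7.39 in wild type, and rose by 0.50 (SE 0.117, adjusted p = 0.0342). Bub3, the adaptor that brings BUB1 and BUBR1 to kinetochores, read 9.12, 9.43 and 9.42 in Rptor cKO, against 8.54, 8.82 and 9.01 in wild type. The groups did not overlap, and with a difference of 0.53 (SE 0.142) its adjusted p of 0.0533 was the nearest to the threshold among members that missed it. Bub1b (BUBR1) differed by 0.31 (SE 0.123, adjusted p = 0.172) and the kinase Bub1 by 0.18 (SE 0.187, adjusted p = 0.632). Ttk (MPS1, the kinase that starts checkpoint signalling) read 6.01, 5.65 and 5.60 in Rptor cKO and 5.89, 5.55 and 6.14 in wild type. Its groups overlapped fully, and the difference of -0.11 (SE 0.168, adjusted p = 0.759) was smaller than its error.

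Among the 3 anaphase genes, 2 rose. Cdc20 (chromosome 4, 118432901 to 118437343) read 7.86, 7.90 and 7.97 in Rptor cKO, against 7.37, 7.07 and 7.53 in wild type, a 1.51-fold rise (0.59, SE 0.125, adjusted p = 0.0233). Espl1 (separase, the protease that cuts cohesin to part sister chromatids) read 7.13, 7.22 and 7.11 in Rptor cKO, against 6.70, 6.55 and 6.82 in wild type, and rose by 0.46 (SE 0.1, adjusted p = 0.0245). Every Rptor cKO value of both genes exceeded every wild-type value. Ube2c, the ubiquitin-conjugating enzyme of the anaphase-promoting complex, went against this order on a single array. It read 7.96, 8.64 and 8.55 in Rptor cKO and 8.02, 8.14 and 8.20 in wild type, so that Rptor cKO array 1 was the lowest of the 6, and the difference was 0.26 (SE 0.173, adjusted p = 0.412).

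None of the 5 centromere and kinetochore members passed in limma (3 had an unadjusted p under 0.05), with a median difference of 0.40. Cenpa, the histone H3 variant that marks centromeres, read 7.67, 7.63 and 7.70 in Rptor cKO, against 7.20, 7.16 and 7.57 in wild type (0.36, SE 0.122, adjusted p = 0.113). Cenpf, a kinetochore protein that accumulates in G2, read 6.56, 6.58 and 6.46 in Rptor cKO, against 6.03, 5.71 and 6.42 in wild type (0.48, SE 0.165, adjusted p = 0.121). In both, wild-type array 6 lay just under the Rptor cKO arrays and the other 2 wild-type arrays well under. Ndc80, of the complex that binds microtubules, differed by 0.48 (SE 0.164, adjusted p = 0.117) and its partner Nuf2 by 0.22 (SE 0.171, adjusted p = 0.507). The kinetochore motor Cenpe differed by 0.40 (SE 0.191, adjusted p = 0.263), and its wild-type values ran from 5.23 to 6.05.

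Of the 7 spindle motors and microtubule proteins, Kif2c rose. This kinesin, which takes microtubules apart at centromeres, read 6.28, 6.42 and 6.39 in Rptor cKO, against 5.74, 5.69 and 5.99 in wild type, a 1.47-fold rise (0.55, SE 0.108, adjusted p = 0.0168). The others had differences from 0.25 to 0.52 and wide wild-type values. Kif11 (EG5, which pushes spindle poles apart) read 7.45, 7.15 and 7.28 in Rptor cKO, against 6.67, 6.38 and 7.36 in wild type, where array 6 lay inside the Rptor cKO range (0.49, SE 0.226, adjusted p = 0.243). Kif15, which can stand in for KIF11, differed by 0.52 (SE 0.157, adjusted p = 0.0815) with groups that did not overlap. Tpx2, the activator of Aurora A, differed by 0.44 (SE 0.141, adjusted p = 0.0975), with Rptor cKO array 1 (7.51) just under wild-type array 6 (7.54). Kif4, a chromosome-bound kinesin encoded on the X chromosome, differed by 0.30 (SE 0.142), and by 0.23 with embryo sex as a term. Nusap1, a microtubule bundler, differed by 0.27 (SE 0.153) and Hmmr, a spindle-associated protein, by 0.25 (SE 0.255), its wild-type values running from 5.02 to 6.14.

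The cytokinesis genes held the largest member difference. Anln (anillin, the scaffold of the contractile ring; chromosome 9, 22331214 to 22389211) read 6.64, 6.65 and 6.64 in Rptor cKO, against 5.69, 5.55 and 6.14 in wild type. The Rptor cKO arrays were almost identical, the wild-type arrays were well spread, and the rise was 1.80-fold (0.85, SE 0.147, adjusted p = 0.0107). Kif23 (MKLP1, the motor of the centralspindlin complex) read 7.72, 7.66 and 7.63 in Rptor cKO, against 7.02, 6.58 and 7.39 in wild type. Its difference of 0.67 was second to Anln, but with an SE of 0.184 the adjusted p was 0.058. Its partner Racgap1 differed by 0.36 (SE 0.114, adjusted p = 0.098), Ect2, which switches on RhoA at the furrow, by 0.55 (SE 0.179, adjusted p = 0.103), and Kif20a (MKLP2) by 0.42 (SE 0.127, adjusted p = 0.0819). Prc1, the bundler of the central spindle, differed by 0.33 (SE 0.171) and was the sole gene of these 6 with overlapping groups.

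The most used proliferation marker showed the overlap plainly. Mki67, whose protein coats mitotic chromosomes, read 10.02, 9.99 and 10.18 in Rptor cKO and 9.58, 9.45 and 10.21 in wild type, so that wild-type array 6 was the highest of all. Its difference was 0.31 (SE 0.186, adjusted p = 0.364), and it ran from 0.17 (adjusted p = 0.656) without wild-type array 5 to 0.54 (adjusted p = 0.0364) without wild-type array 6. Top2a, the topoisomerase that untangles sister chromatids, read 8.21, 7.85 and 7.67 in Rptor cKO, against 7.24, 7.06 and 7.82 in wild type (0.54, SE 0.21, adjusted p = 0.166).

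**Figure D4:**
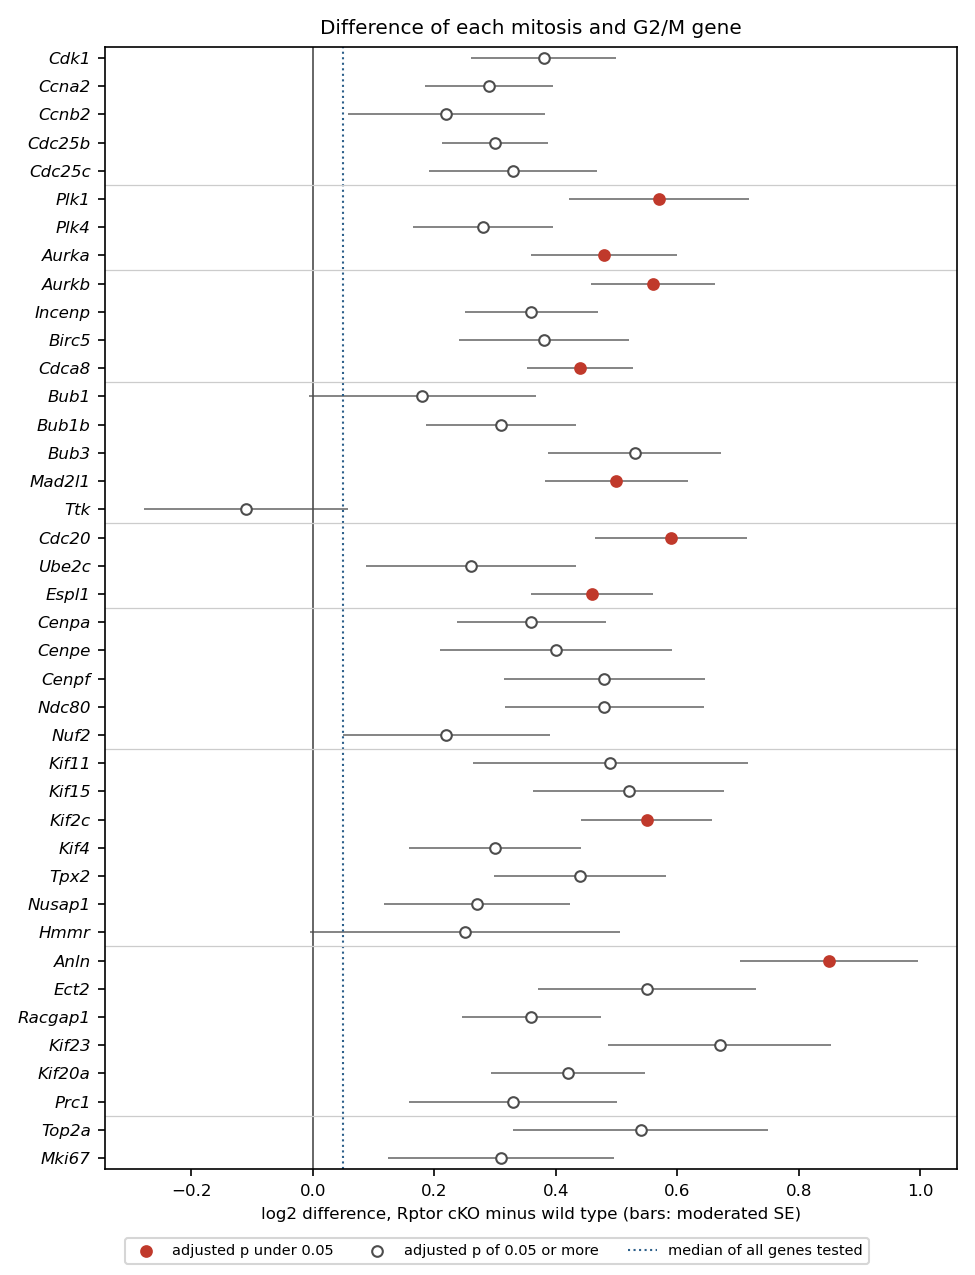
Points give the log2 difference (Rptor cKO minus wild type) of each member with its moderated SE, grouped by role, filled where the adjusted p was under 0.05. All points but Ttk lie right of the dotted median of all genes (0.05), with Anln highest at 0.85.

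Other mitotic genes were mixed by complex. Their lists were written from general knowledge but chosen with earlier results of these data known, so they give no independent support. Their counts are read against the same shares of all genes, 3.64% higher and 5.96% lower. None of the 17 genes of the anaphase-promoting complex and its partners passed in limma (3 had an unadjusted p under 0.05, 2 of them higher, and the median was 0.14), and those with the smallest p were Anapc13 (-0.30, SE 0.0893) and Cdc26 (0.29, SE 0.0873). Of 8 condensin subunits, which compact chromosomes, Ncapd2 rose (0.52, SE 0.13, adjusted p = 0.0432), and the median was 0.38. Of 16 cohesin genes 1 rose and 2 fell (median 0.18). Sgo1, the protector of centromeric cohesin, rose by 0.45 (SE 0.117), while the cohesin release factor Wapl fell by 0.78 (SE 0.119) and Pttg1 (securin, the inhibitor of separase) fell by 0.45 (SE 0.089). Pttg1 thus moved opposite to Espl1, reading 4.85, 4.96 and 5.03 in Rptor cKO against 5.37, 5.43 and 5.41 in wild type, and without the step of wild-type array 6 that most members had. Without Rptor cKO array 2 the condensin rise was lost, and of the cohesin calls Wapl alone was still made, as with the sex term. Leaving out any other array but wild-type array 6 also left no condensin or cohesin gene called higher. Pttg1 also lost its call without Rptor cKO array 1.

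Other kinetochore genes had mostly positive differences. Of 16 centromere and inner kinetochore genes 2 rose, Cenpw (0.50, SE 0.111) and Mis18a (0.40, SE 0.09), and all 16 differences were positive (median 0.29). Of 17 outer kinetochore genes 4 rose and none fell (median 0.37), namely Pmf1 (0.65, SE 0.111), Ska2 (0.69, SE 0.152), Trip13, which disassembles the checkpoint complex (0.73, SE 0.168), and Zwilch (0.52, SE 0.13). Of 24 spindle and cytokinesis genes 4 rose and none fell (median 0.33). The rises were the minus-end motor Kifc1 (0.45, SE 0.0902), Iqgap3 (0.49, SE 0.1), Tacc3 (0.50, SE 0.121) and citron kinase Cit (0.35, SE 0.0916). Of the 24 differences 3 were negative, and the lowest, -1.11, was larger in size than the highest, 0.55, but was not called. These counts also depended on the arrays. Without Rptor cKO array 2 limma called 0 genes of the 3 lists, with 7 inner kinetochore, 11 outer kinetochore and 11 spindle and cytokinesis genes higher at an unadjusted p under 0.05. With the sex term it also called 0, with 3, 4 and 6 genes of these lists higher at an unadjusted p under 0.05. Of all genes, 8.01% were higher at that unadjusted threshold without Rptor cKO array 2, and 8.94% with the sex term. Without wild-type array 6 limma called 2, 9 and 8 genes of these lists higher, and 2.84% of all genes. The fits that left out another array called 0 or 1 inner kinetochore, 1 or 2 outer kinetochore and 0 to 2 spindle and cytokinesis genes higher, and 1 spindle gene was called lower without wild-type array 5.

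Regulators moved in both directions. Over all genes, 3.64% were called higher and 5.96% lower. Of 17 G2/M kinases and their controls 5 rose and 1 fell (median 0.29). Wee1, the kinase that holds CDK1 inactive, rose by 0.75 (SE 0.108, adjusted p = 0.00581), reading 7.57, 7.75 and 7.72 in Rptor cKO against 6.84, 6.85 and 7.10 in wild type, and its opponent Cdc25a rose by 0.51 (SE 0.122). Cks1b, a small CDK-binding protein, rose by 0.48 (SE 0.1) and the mitotic kinase Pbk by 0.63 (SE 0.151), while the kinase Stk10 fell by 1.36 (SE 0.352). Of 20 transcriptional regulators 4 rose and 2 fell (median 0.16). The rises were the B-MYB gene Mybl2 (0.46, SE 0.0975) and E2f1 (0.67, SE 0.111), E2f3 (0.61, SE 0.158) and E2f7 (0.67, SE 0.0941). Both falls were pocket proteins, which hold E2F targets silent: Rb1 read 6.17, 5.94 and 6.24 in Rptor cKO against 6.78, 6.75 and 7.15 in wild type (-0.78, SE 0.136), and Rbl2, the p130 subunit of DREAM, read 6.00, 5.79 and 6.00 in Rptor cKO against 6.46, 6.60 and 6.56 in wild type (-0.61, SE 0.0992). The remaining pocket protein of the list, Rbl1, pointed up and was not called (0.44, SE 0.175, adjusted p = 0.174). It read 7.13, 6.86 and 6.87 in Rptor cKO against 6.45, 6.19 and 6.89 in wild type. The 2 other Rb1 probe sets had Rptor cKO means of 2.29 and 3.50 and wild-type means of 2.18 and 3.71, all below the negative control median of every array, and the other E2f3 probe set differed by 0.59. Of the kinase list, 1 gene was called higher in each fit that lacked Rptor cKO array 2, wild-type array 4 or wild-type array 5, and 0 with the sex term (5 were higher at an unadjusted p under 0.05). Of all genes, 0.911%, 2.22% and 2.61% were called higher in those leave-out fits, and 0.672% with the sex term (8.94% higher at an unadjusted p under 0.05). The call of Stk10 was lost on leaving out wild-type array 6 or any Rptor cKO array, after quantile normalization or median subtraction, with a trended or ordinary variance model and with the sex term. Of the transcriptional list, E2f1, E2f7 and Rbl2 were still called without Rptor cKO array 2, and E2f1 and Rbl2 with the sex term. Mybl2 also lost its call on leaving out Rptor cKO array 3, wild-type array 4 or wild-type array 6. E2f3 lost it on leaving out Rptor cKO array 1, wild-type array 4 or wild-type array 5, and with array medians subtracted. Rb1 was not called when its probe sets were averaged. E2f1, E2f7 and Rbl2 also separated the groups without the step of wild-type array 6 toward Rptor cKO.

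Many genes of the preceding phase rose too. Of 29 DNA replication and S phase genes 16 rose, none fell, and all differences were positive (median 0.43), against 9 of 40 mitotic members (median 0.39). Whether these shares differ was not tested. Over all genes, 3.64% were called higher and 5.96% lower, and 61.6% of the differences were positive. Mcm3, of the replicative helicase, rose by 0.70 (SE 0.114), thymidylate synthase Tyms by 0.57 (SE 0.0914), the histone chaperone subunit Chaf1a by 0.55 (SE 0.093) and Cdc45 by 0.52 (SE 0.0957). The S phase list had median deviations of 0.23, 0.21 and 0.22 in Rptor cKO arrays 1 to 3, against -0.29, -0.36 and -0.05 in wild-type arrays 4 to 6, so array 6 stood apart here as well. Without Rptor cKO array 2, 1 S phase gene was called higher, with 20 higher at an unadjusted p under 0.05, and with the sex term limma called 0, with 15 higher at an unadjusted p under 0.05. Of all genes, 0.911% were called higher without Rptor cKO array 2 and 0.672% with the sex term. At an unadjusted p under 0.05 these shares were 8.01% and 8.94%. Among 12 D cyclins, their kinases and CDK inhibitors 3 rose and 2 fell, beside 3.64% and 5.96% of all genes. Ccnd2 rose by 1.09 (SE 0.11), Cdk6 by 0.68 (SE 0.125) and Ccnd3 by 0.51 (SE 0.122). The inhibitors Cdkn1a (p21) and Cdkn2b (p15) fell by 1.05 (SE 0.223) and 1.04 (SE 0.11). The call of Ccnd3 was lost on leaving out any single array but wild-type array 5. That of Cdkn1a was lost on leaving out Rptor cKO array 2, wild-type array 5 or wild-type array 6. Without Rptor cKO array 2, and also with the sex term, Ccnd2 and Cdkn2b were the sole calls of this list.

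**Figure D5:**
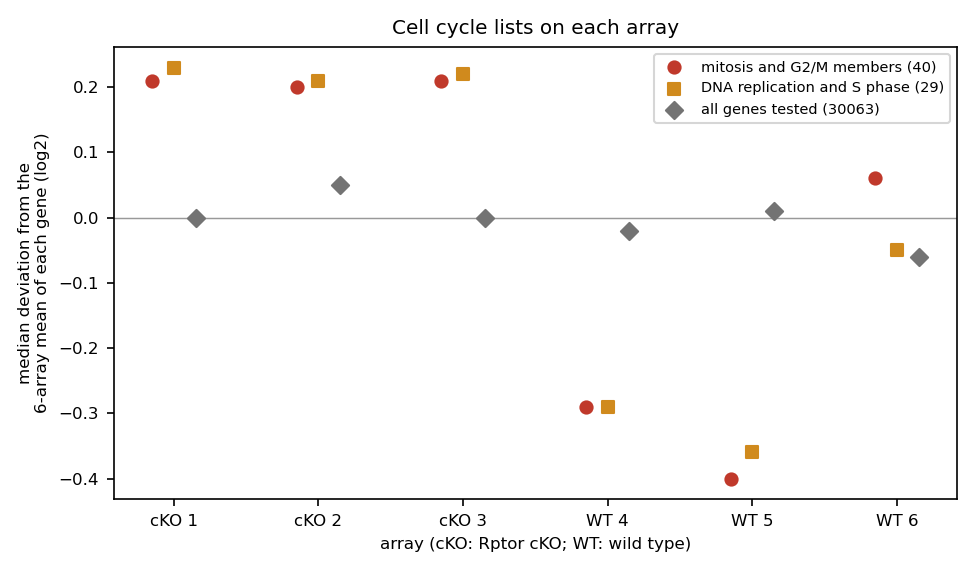
Points give, for each array, the median over a list of the deviation from each gene's mean over the 6 arrays (log2), for the 40 members, 29 S phase genes and all 30063 genes. Both cell cycle lists are near 0.2 in the 3 Rptor cKO arrays, while the wild-type arrays spread for the members from -0.40 in array 5 to 0.06 in array 6.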

How the data were processed

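RNA of 6 epidermal sheets was measured on arrays. The deposited table gives log2 values per probe set, made with RMA and Partek with build mm10, per the submitters' processing notes, which name no tool versions. The log2 scale was read from the values (1.34 to 14.04). Quantile normalization, part of RMA as usually run, hides a general change in RNA and limits fold changes. Of 72688 probe sets, 6732 controls were left out, 30604 named 1 gene, 2146 several and 33206 none. Symbols were updated through Entrez IDs and RefSeq synonyms (1135 changes), leaving 30063 genes, and 429 with several probe sets took the one with the highest mean. No dim gene was dropped, and no member lay under the negative control median (3.82 to 4.11) on any array. A high percentile of the negative controls ran from 7.68 to 8.07 in Rptor cKO and from 7.46 to 7.66 in wild type. Anln, Aurkb, Kif2c and Cdca8 lay under that percentile on all 6 arrays, whereas Plk1, Bub3 and Mki67 lay above it on all 6. Whether its higher level in Rptor cKO has a part in the member differences was not tested. Array medians ran from 4.08 to 4.22. Coordinates are those of the RefSeq annotation of GRCm38.p6.

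Differences were fitted with lmFit and eBayes of limma 3.58.1 (R 4.3.3, 4.31 prior degrees of freedom), group as the sole term, two-sided, Benjamini-Hochberg adjusted over all genes. SD is over 3 arrays, SE is moderated. With 3 arrays a group, the number of arrays limits the precision. The procedure was tested on simulated data. Promoter letters, tables and plots used Python 3.11.15, pandas 2.3.3 and matplotlib 3.10.9. Alternatives covered scaling, dim genes, probe sets, the variance model, array weights, sex and leaving out each array. The members and lists were chosen with earlier results of these data known. Named were all members and, for every list, at most 4 called genes per direction by smallest p, or 2 genes if nothing was called. Rbl1 and Krt15 were added because each moved against others of its kind. Slide and scan date were not known, so array batches were not tested.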

Additional observations from a re-analysis of the deposited data

How the results depend on the processing

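All 15 fits left no member called lower. Among refits of single members, 476 kept direction and side of the threshold, 52 lost the call, 30 gained it and 2 changed sign. The number of members called higher was 9, and it became 19 after quantile normalization over all genes, 0 with an ordinary linear model (17 at an unadjusted p under 0.05) and 0 with embryo sex as a term (12 at an unadjusted p under 0.05). At that unadjusted threshold 8.94% of all genes were higher with the sex term. For the ordinary model this share was not counted, so its 17 members cannot be set against all genes. The number of members called higher was 6 with array medians subtracted or with a trended, robust variance, and 11 with dim genes left out or with array weights. Of all 30063 genes, 1095 were called higher in the main fit, 1457 after quantile normalization and 6 with the ordinary linear model. The same count was 815 with array medians subtracted, 972 with the trended variance and 1173 with array weights. With dim genes left out it was 1088 of 20200. Under quantile normalization the median of all genes was 0.03 and the member median 0.49. Over all genes, 2886 were called, against 8 with the ordinary linear model, which has 4 residual degrees of freedom and borrows none, and 643 with embryo sex as a term. Leaving out each array in turn gave 891 to 2444 calls over all genes (1854 without Rptor cKO array 1 and 891 without Rptor cKO array 2), 0 to 22 members called higher and a member median of 0.30 to 0.52, with both highest member values without wild-type array 6 and the 0 without Rptor cKO array 2. Signs turned for Hmmr, at -0.04 without wild-type array 5 (limma adjusted p = 0.921; 0.52 without array 6), and for Ttk, at 0.03 without wild-type array 6 (limma adjusted p = 0.945; -0.26 without array 5). Anln, Aurkb and Kif2c were called in 11 of 14 alternatives, Plk1, Aurka and Mad2l1 in 5. The causes were not tested. No paired analysis was possible because the labels number the Rptor cKO arrays 1 to 3 and the wild-type arrays 4 to 6, so the groups share no number. With 3 arrays a group, the number of arrays and the spread of the wild-type arrays limit which differences of this size pass.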
